A study of Mus musculus with 4 samples.

Results

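The cytosolic chaperonin CCT (also called TRiC) was followed through the mRNAs of its subunit genes, Tcp1, Cct2, Cct3, Cct4, Cct5, Cct6a, Cct7 and Cct8. The members were chosen by gene symbol, with earlier results of these data known. Every read above 0 nt of tail that carried such a symbol was taken. The members were 8 of the 13831 symbols in the table and held 8143 of 1903919 reads. All 8 passed the filter of at least 20 reads in each library used for tail length, with 96 to 594 reads per gene and library.

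The reads came from direct RNA nanopore sequencing, which passes native RNA molecules through a pore and gives for each read an estimate of its poly(A) tail in nucleotides (nt). Embryonic stem cells of the J1 mouse line, grown in serum with LIF and given no treatment, were compared as wild type (WT, 2 libraries) and as a knockout of Mov10 (KO, 2 libraries); Mov10 encodes an RNA helicase. The labels do not state how the knockout was made, whether it was 1 clone, or whether the libraries of a genotype came from separate cultures. P-values therefore measure only the spread between these libraries. For tails this was a spread shared over genes at like read number, with no weight on a gene's own. Libraries held 351133 to 683239 reads.

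CCT is a double ring in which each ring has 8 different but related subunits arranged in a fixed order. It binds unfolded proteins in its cavity and folds them with the energy of ATP, and actin and tubulin are its best known substrates. Prefoldin hands substrates to it, and phosducin-like proteins act as co-factors. All subunits are needed for a working ring, and in growing cells such as embryonic stem cells the complex is abundant.

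The regulatory sequence in front of the genes is given first, because all of them must be transcribed for the ring to form. RefSeq (GRCm38.p6) gave the 250 bases before a transcription start for 7 of the 8 genes, in 9 windows, and no entry was found for Cct4. The motif CCAAT, the core bound by NF-Y, was searched on both strands and occurred before 4 genes, with 3 copies before Cct7, 2 each before Cct3 and Cct6a, and 1 before Tcp1. It was present in 33.8% of all 32851 windows of that length. The motif CCGGAA, the core of ETS-family sites, occurred in a window of 5 genes (Tcp1, Cct2, Cct5, Cct7 and Cct8) and in 12.0% of all windows. For Cct5 it lay only in the window at chr15:31601540-31601789 on the minus strand. That stretch follows the other Cct5 start, so it is not simply in front of the gene. GAANNTTC, a pair of inverted repeats of the kind bound by heat shock factors, occurred in 1 Cct2 window only, and in 6.69% of all windows. That window (chr10:117063376-117063625, minus strand) likewise follows the other Cct2 start. A gene was counted if any of its windows matched, while the shares are over single windows. Of the 9 subunit windows, 4 held CCAAT, 5 CCGGAA and 1 GAANNTTC. The motifs were chosen after the windows had been seen, can overlap (CCGGAA and GAANNTTC share letters), and a match describes the letters only. Windows of Tcp1, Cct7 and Cct8 are printed because they show the different mixtures, with CCAAT and CCGGAA, or their reverse complements, in capitals. Tcp1 is at chr17:12916079-12916328 on the plus strand, Cct7 at chr6:85451255-85451504 on the plus strand, and Cct8 at chr16:87495870-87496119 on the minus strand.
Tcp1: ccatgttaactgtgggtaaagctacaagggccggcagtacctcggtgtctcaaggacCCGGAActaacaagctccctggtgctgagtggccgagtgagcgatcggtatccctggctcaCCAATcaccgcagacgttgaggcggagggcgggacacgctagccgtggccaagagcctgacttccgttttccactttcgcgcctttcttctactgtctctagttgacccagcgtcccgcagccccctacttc
Cct7: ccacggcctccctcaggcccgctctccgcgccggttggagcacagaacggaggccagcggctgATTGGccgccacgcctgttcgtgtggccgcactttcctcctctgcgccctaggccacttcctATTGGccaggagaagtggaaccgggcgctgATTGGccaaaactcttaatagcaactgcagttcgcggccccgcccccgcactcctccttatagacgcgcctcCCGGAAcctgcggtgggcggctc
Cct8: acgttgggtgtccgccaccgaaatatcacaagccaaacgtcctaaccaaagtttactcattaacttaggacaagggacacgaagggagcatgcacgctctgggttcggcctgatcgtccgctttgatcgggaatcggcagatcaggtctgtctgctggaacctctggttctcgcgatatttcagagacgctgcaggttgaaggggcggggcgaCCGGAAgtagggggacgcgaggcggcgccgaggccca
In these windows Cct7 held all its CCAAT matches as the reverse complement, ahead of a single CCGGAA near the start. Tcp1 held both motifs once, and Cct8 held CCGGAA alone.

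The tails of the CCT mRNAs were somewhat shorter than those of most genes tested. The 8 subunits had a median of 92.2 nt (WT 1), 91.5 nt (WT 2), 100.5 nt (KO 1) and 96.1 nt (KO 2), the order kept below. For the 1935 genes that passed the read filter it was 102.1, 109.3, 110.0 and 102.0 nt in the same order. The subunits lay below the tested genes in each library, by 5.81 nt in KO 2 and up to 17.9 nt in WT 2. Of the 8 subunits, 7, 8, 8 and 6 lay under the library's median over genes. Among 307 genes with similar read numbers the medians were 100.7, 110.7, 108.7 and 103.4 nt, so the gap was also present at like abundance. No test was made of this gap.

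The subunits are often set in 2 arcs of the ring, one with higher affinity for ATP (Tcp1, Cct2, Cct4 and Cct5) and one with lower affinity (Cct3, Cct6a, Cct7 and Cct8). In the first arc, Cct5 (the epsilon subunit; ENSMUSG00000022234.15) had median tails of 80.7, 82.7, 86.1 and 93.1 nt. Both KO libraries were above both WT libraries. Tcp1 (the alpha subunit; ENSMUSG00000068039.13), the founding member of the family, had 88.0, 77.4, 100.7 and 99.2 nt in that order. Its WT values were low and its KO values high, without overlap, and the gap between WT libraries was wider than that between KO libraries. Cct2 (the beta subunit; ENSMUSG00000034024.8) had 83.9, 90.2, 100.3 and 88.4 nt, where KO 1 stood above the other libraries and KO 2 lay between the WT values. Cct4 (the delta subunit; ENSMUSG00000007739.10) had 96.5, 102.3, 105.6 and 100.4 nt, with the groups overlapping.

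In the second arc, Cct7 (the eta subunit; ENSMUSG00000030007.8) had median tails of 87.8, 87.9, 93.4 and 91.3 nt. The KO libraries were both higher, by an amount smaller than the 95% interval of any 1 of these medians, such as 77.2 to 102.0 nt in WT 1. Cct3 (the gamma subunit; ENSMUSG00000001416.13) was the steadiest, at 102.1, 102.0, 103.5 and 104.5 nt. Its groups did not overlap, although the nearest values were little more than 1 nt apart. Cct8 (the theta subunit; ENSMUSG00000025613.13) had 97.9, 106.8, 105.7 and 103.4 nt, and Cct6a (the zeta subunit found in most tissues; ENSMUSG00000029447.11) had 106.9, 92.7, 100.2 and 85.1 nt. Cct8 and Cct6a overlapped between genotypes, and Cct6a was the only subunit whose median was lowest in a KO library.

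**Figure D1:**
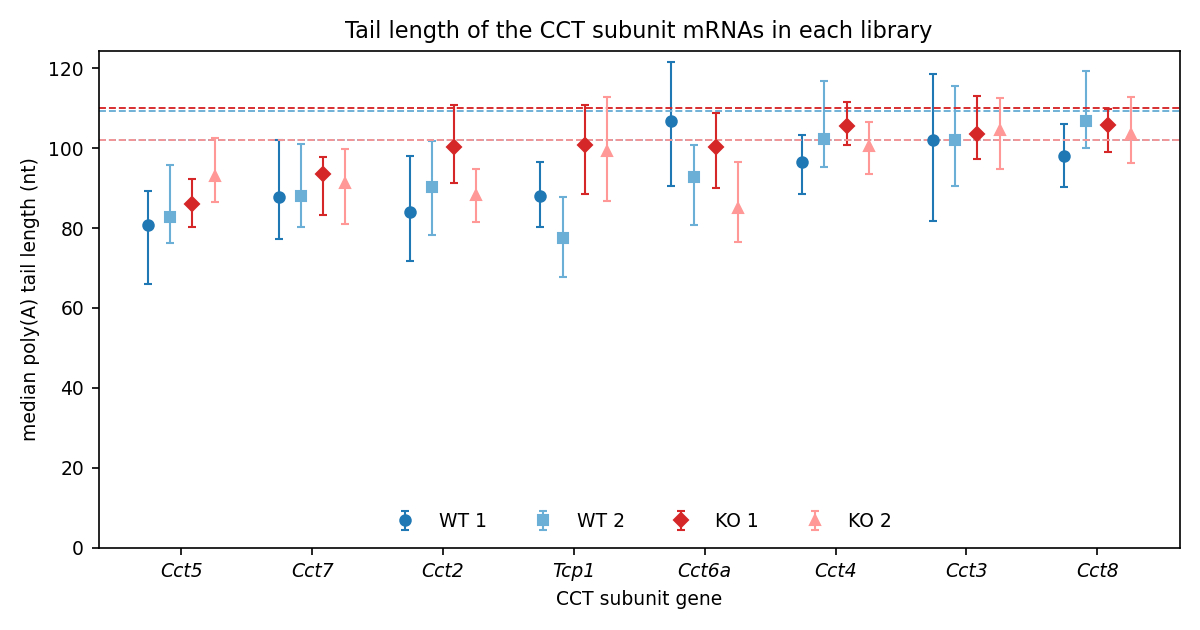
Median poly(A) tail length (nt, vertical axis) of each CCT subunit mRNA in WT 1, WT 2, KO 1 and KO 2, with genes ordered by mean; bars are 95% order-statistic intervals over reads and dashed lines the library's median over 1935 genes. Cct5 sits lowest, at 80.7 to 93.1 nt, and Cct3 hardly moves, at 102.0 to 104.5 nt.

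Averaged over the 4 libraries, Cct5 had the shortest tails (85.6 ± 5.44 nt, SD, n = 4 libraries). It was followed by Cct7 (90.1 ± 2.76), Cct2 (90.7 ± 6.94), Tcp1 (91.3 ± 10.9) and Cct6a (96.2 ± 9.40). Cct4 (101.2 ± 3.79), Cct3 (103.0 ± 1.18) and Cct8 (103.5 ± 3.95) had the longest. No neighbours in this order differed in the same direction in all 4 libraries. Across the whole range they did: Cct8 exceeded Cct5 by 17.8 ± 5.72 nt, from 10.4 to 24.1 nt, in 4 of 4 libraries. Cct3 exceeded Cct5 by 17.4 nt and Cct4 exceeded it by 15.6 nt, each also in 4 of 4. No test was made of the order, which was read from the same values.

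Single reads show how the distributions differed. In Cct5 the lower quartile was 48.0, 55.5, 58.6 and 64.4 nt, so both KO values lay above both WT values there too. Reads of 150 nt or more made up 12.7%, 13.3%, 14.1% and 14.4% of Cct5 reads, against 18.8%, 24.0%, 23.7% and 19.6% of all reads. The 95% Wilson intervals of the Cct5 shares, which cover counting error only, ended below the share of all reads in each library. Cct7 also had few long tails, at 12.1% to 16.5%, but its interval reached the share of all reads in WT 1, WT 2 and KO 2.

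Tails under 30 nt were 2.28%, 4.75%, 2.32% and 3.04% of the CCT reads, and 2.35%, 3.02%, 1.55% and 2.75% of all reads. Of the subunits, pooled over libraries, Cct8 had the lowest share (1.30%, 14 reads) and Cct7 the highest (4.87%, 26 reads). Cct3 was close to Cct8 (1.54%, 14 reads). This order did not hold in every library. Cct3 was lower than Cct8 in WT 2 and KO 2, and Cct7 was exceeded by Cct2 in WT 2 and by Tcp1 in KO 1. In WT 1 no read of Cct6a (0 of 112) or Cct8 (0 of 169) was that short, which allows a share of up to 2.68% and 1.78% when a count of 0 is taken to allow 3 reads; the upper ends of the 95% Wilson intervals are 3.32% and 2.22%. The CCT share was above that of all reads in WT 2, KO 1 and KO 2. Among the libraries WT 2 had the highest share in 6 of the subunits, the exceptions being Tcp1 and Cct7.

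**Figure D2:**
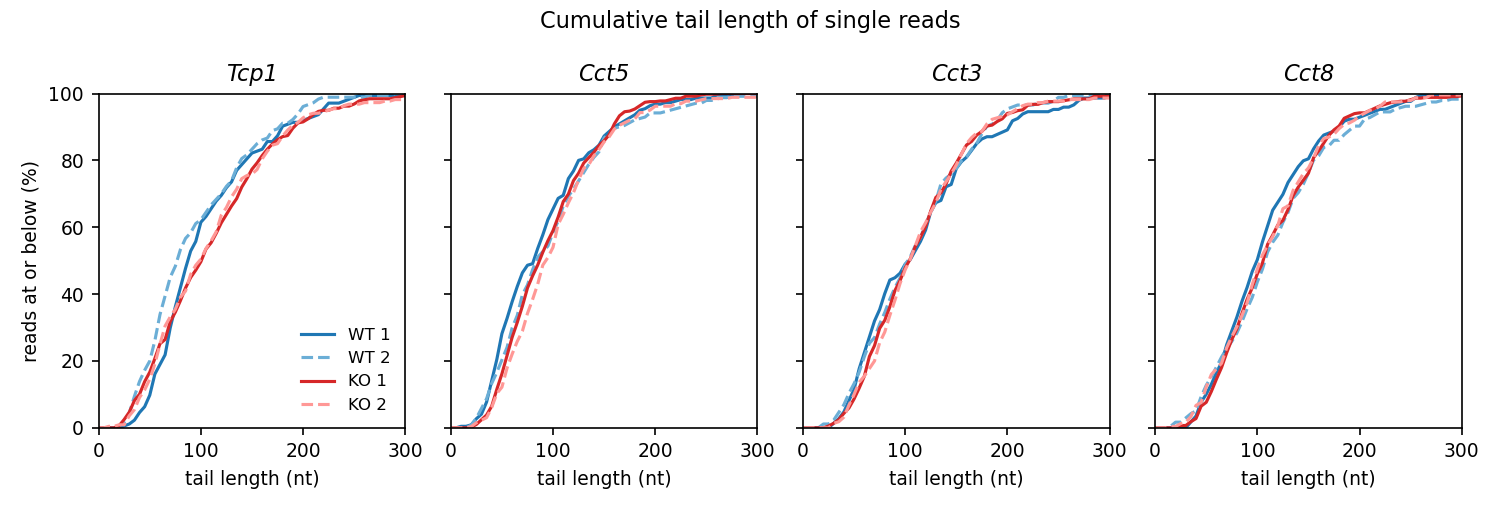
Cumulative share of reads (%, vertical axis) at or below each tail length (nt, horizontal axis, drawn to 300 nt) for Tcp1, Cct5, Cct3 and Cct8 in the 4 libraries. For Tcp1 the KO curves lie to the right of the WT curves around the middle (medians of 100.7 and 99.2 nt against 77.4 and 88.0 nt), for Cct3 the curves meet near 100 nt (47.3% to 49.0%) and spread at 80 nt (28.6% to 40.1%), and for Cct8 the values at 80 nt run from 28.4% to 33.1%.

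The comparison of KO with WT asks whether loss of Mov10 changed the tails. By limma on log2 median tail length with Benjamini-Hochberg adjustment over 1935 genes, 0 of the 8 subunits passed an adjusted p of 0.05, as did 0% of all genes. At an unadjusted p under 0.05 there was 1 subunit, Tcp1, and 45 genes in all (2.33%). The change was positive in 7 of 8 subunits, with a median of 0.06 on the log2 scale against 0.01 over all genes, of which 51.8% were positive. In 4 subunits both KO values exceeded both WT values (Tcp1, Cct3, Cct5 and Cct7), where 14.7% of all genes tested did; 0 subunits lay wholly lower, where 11.8% of genes did. Leaving out KO 1 brought the median over the subunits to 0.03, and KO 2 against WT 2 alone gave a median of 0.00 with 4 of 8 subunits higher. Each other pair of a KO with a WT library gave a median of 0.07 to 0.10 with 7 of 8 higher. The pairs share libraries, so they are not separate results. With 2 libraries against 2, an exact two-sided permutation test has 6 arrangements and cannot go below 0.333.

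By median tail length Tcp1 had the largest change of the subunits. The mean of its library medians was 82.7 ± 7.45 nt in WT, against 99.96 ± 1.06 nt in KO (SD, n = 2 libraries each). The log2 change was 0.28 (SE 0.13; 95% interval 0.02 to 0.54; limma adjusted p = 0.9998). With the mean of log2 tail length in place of the median the change was 0.11, below Cct2 (0.15) and Cct5 (0.14). Without WT 2 it was 0.18, smaller in size than that of Cct6a (-0.21), so its first place depends on the summary and on that library. The difference lay in the middle and upper part of the distribution. The upper quartile was 132.1, 131.5, 145.5 and 140.3 nt, and the lower quartile 67.2, 54.2, 60.2 and 59.9 nt. Upper quartiles did not overlap between genotypes, and lower quartiles did. Reads from 60 to under 90 nt were 33.9%, 24.4%, 19.8% and 20.9% of Tcp1 reads, higher in both WT libraries.

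For Cct5 the log2 change was 0.13 (SE 0.13; 95% interval -0.11 to 0.38; limma adjusted p = 0.9998), from 81.7 ± 1.46 nt in WT to 89.6 ± 4.95 nt in KO. The estimates were 0.11 for Cct2, 0.07 for Cct7, 0.05 for Cct4, 0.03 for Cct8 and 0.03 for Cct3, each with an interval that spans 0 and the same adjusted p. Leaving out 1 library moved Cct2 between 0.02 (without KO 1) and 0.21 (without KO 2), Cct4 between 0.0095 (without WT 1) and 0.09 (without WT 2), and Cct5 between 0.08 (without KO 2) and 0.19 (without KO 1). Cct6a had an estimate of -0.11 (interval -0.37 to 0.15), with 99.8 ± 10.03 nt in WT and 92.6 ± 10.6 nt in KO. For Cct3 the interval ran from -0.23 to 0.29. These intervals are per gene and unadjusted, so a change outside them could still have missed the adjusted threshold.

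Which genes did not overlap depended on how a tail was summarised. With the mean of log2 tail length they were Tcp1, Cct2, Cct3 and Cct5, and with each library centred on its median over genes they were Tcp1, Cct2 and Cct4. With only the transcript with most reads they were Tcp1, Cct5 and Cct7. Tcp1 was in each of these lists. The share over all genes (14.7%) was computed for the library medians alone. These other lists have no such share beside them, and nothing is read from them. The 2 WT libraries differed from each other over all genes (median 102.1 against 109.3 nt), as did the KO libraries (110.0 against 102.0 nt), and the part of this in the count was not tested.

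**Figure D3:**
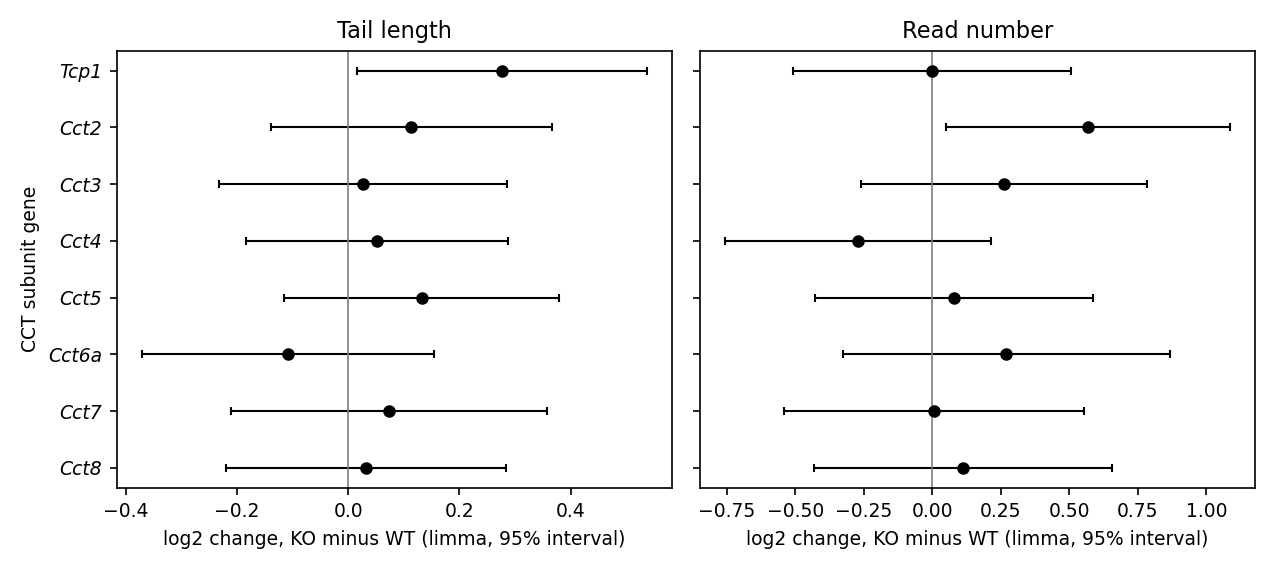
Log2 change of KO minus WT for each CCT subunit in tail length (left) and read number (right), with 95% intervals from limma and limma voom. For tails only Tcp1 (0.28) has an interval above 0, and for read number only Cct2 (0.57) does.

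Tcp1 reads fell on several transcripts. ENSMUST00000151287.7 held 549 reads (61.5%), with medians of 88.6, 69.6, 101.2 and 102.3 nt, so the groups did not overlap on it. ENSMUST00000129632.7 held 261 reads (29.3%), with medians of 93.4, 79.6, 87.4 and 88.0 nt, where the KO values lay between the WT values. Its WT 1 median rests on 18 reads. In RefSeq the end of Tcp1 overlaps that of Acat3, and a few reads on Tcp1 transcripts carry the symbol Acat3. For Cct3 the main transcript held 88.6% of reads, and the remaining subunits had at least 99.6% on 1 transcript.

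The deposited table sorts genes into classes of Mov10 targets and m6A status; how these were made is not given in the sources used here. Tcp1, Cct2, Cct3, Cct5 and Cct7 were in the class of targets without m6A, and Cct4, Cct6a and Cct8 in no class. Of the first 5, all had a positive log2 change in tail length (0.03 to 0.28), and 4 did not overlap, where 16.0% of the 720 genes of that class lay wholly higher in KO. Of the other 3, changes were positive in 2 and 0 lay wholly higher, where 15.3% of the 360 genes in no class did. With 3 genes at such a share, the classes cannot be told apart on this count. The class medians were 0.01 over 720 genes and 0.00 over 360 genes in no class. No test was made between these groups of subunits.

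The CCT subunits were among the more abundant mRNAs. Levels are given as reads per 1000000 with median-of-ratios scaling (RPM), not divided by length, because each direct RNA read is 1 molecule. In a bulk sample, fewer cells of a type and less RNA per cell cannot be told apart. Cct4 had the highest mean (849 ± 113 RPM, SD, n = 4 libraries), at 943, 914, 848 and 691 RPM. It was lower in both KO libraries, and in KO 2 it stood just under Cct2 (706 RPM). Cct7 had the fewest, at 242, 320, 284 and 274 RPM, with overlapping groups. Between them stood Cct6a (440 ± 110 RPM, SD, n = 4 libraries), Cct3 (467 ± 67.4), Tcp1 (469 ± 28.2), Cct2 (539 ± 137), Cct8 (556 ± 102) and Cct5 (628 ± 72.0).

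Within a library the most abundant subunit exceeded the least abundant by 2.58 to 3.90 times. Cct7 was below Cct6a, and Cct8 below Cct5 and Cct5 below Cct4, in 4 of 4 libraries; the neighbours from Cct6a to Cct8 in this order changed places between libraries. Of all CCT reads, 20.3% came from Cct4 and 6.62% from Cct7, averaged over libraries. Although the protein ring holds 1 copy of each subunit, the mRNAs were thus present in unequal numbers. Whether transcripts broken before sequencing are counted unequally was not tested.

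**Figure D4:**
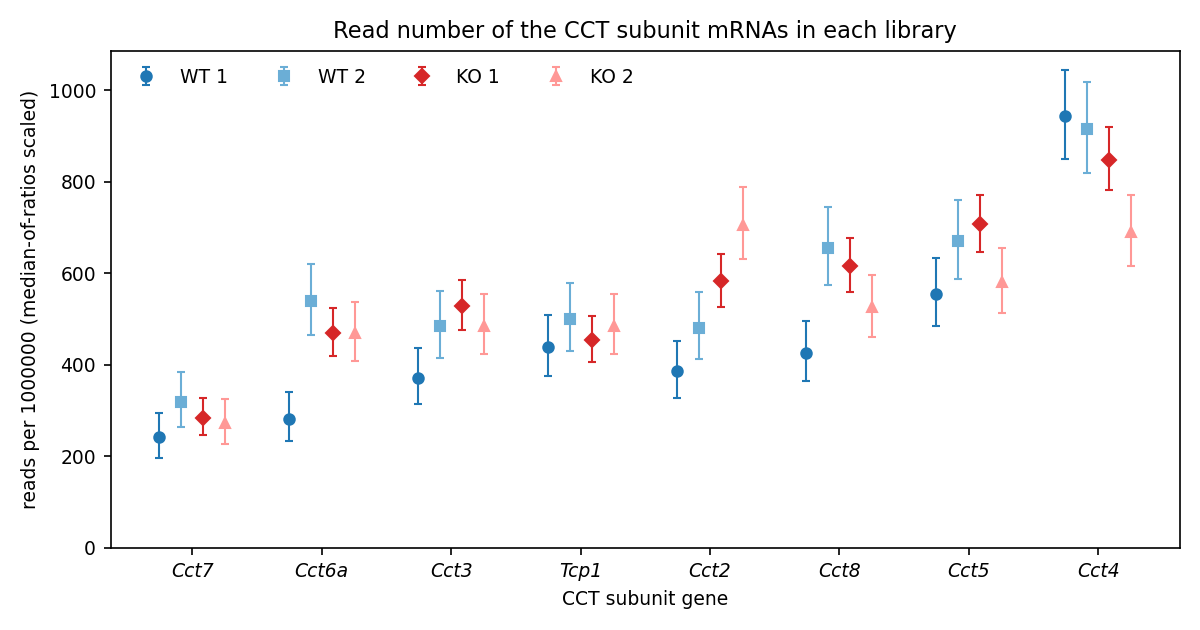
Reads per 1000000 (median-of-ratios scaled, vertical axis) of each CCT subunit mRNA in the 4 libraries, ordered by mean; bars are 95% intervals over read counts. WT 1 is the lowest library for Cct2, Cct3, Cct5, Cct6a, Cct7, Cct8 and Tcp1, and the highest for Cct4 (943).

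In the comparison of read number, 0 of 8 subunits passed an adjusted p of 0.05 by limma voom, as did 0% of 4815 genes. At an unadjusted p under 0.05 there was 1 subunit, Cct2, and 498 genes in all (10.3%). Both KO libraries lay above both WT libraries for Cct2 and Cct3, where 20% of genes did, and below for Cct4, where 20.5% did. The shares among the subunits are near these, and nothing is read from them. The median log2 change was 0.10 over the subunits and -0.01 over all genes.

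Cct2 had 386, 481, 582 and 706 RPM, higher in both KO libraries. Its log2 change was 0.57 (SE 0.25; 95% interval 0.05 to 1.08; limma voom adjusted p = 0.449, from 0.0450 to 0.999 over its alternatives). Without WT 2 it was 0.72 with an adjusted p of 0.0450, the only subunit that passed under any alternative run, and without WT 1 it was 0.40. Without WT 2, however, 451 of 5086 genes passed (8.87%), a share near that of 1 in 8 subunits. For Cct4 the change was -0.27 (limma voom adjusted p = 0.713) and for Cct3 0.26 (adjusted p = 0.760). Leaving out 1 library moved Cct4 between -0.41 (without KO 1) and -0.13 (without KO 2), and Cct3 between 0.06 (without WT 1) and 0.45 (without WT 2). Tcp1 had 439, 500, 454 and 485 RPM and a read number change of 0.00 (limma voom adjusted p = 1.000; interval -0.51 to 0.51).

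WT 1 stood apart for these genes. WT 2 exceeded WT 1 in 7 of 8 subunits, by a median of 0.35 on the log2 scale and by up to 0.93 for Cct6a (282 against 539 RPM). Without WT 1, the change from WT to KO was positive in 2 of 8 subunits (Cct2 and Cct3) with a median of -0.15, and without WT 2 it was positive in 7 with a median of 0.32. The mostly positive read changes therefore rest on WT 1.

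The partners and substrates of CCT and the mitochondrial chaperonin were described from lists of genes. None of these 36 genes passed an adjusted p of 0.05 for tails (25 tested, limma) or reads (33 tested, limma voom). The medians below stand beside 0.01 for tails and -0.01 for reads over all genes tested. Of all genes, 51.8% had a positive change in tails and 49.4% in reads. Prefoldin, which passes nascent chains to the chaperonin, had tails with a positive change in 1 of 6 subunits and a median of -0.09, with Pfdn1 at -0.13 and Pfdn5 at 0.13. Its read numbers were lower in estimate in 4 of 6, with a median of -0.28. Pfdn6 had 368, 422, 174 and 212 RPM, well apart, for a log2 change of -1.04 (limma voom adjusted p = 0.142). Pfdn2 had -0.55 (limma voom adjusted p = 0.483). In reads, both KO libraries lay below both WT libraries for 3 prefoldin genes (20.5% of all genes) and above for 0 (20% of all genes). In tails 1 prefoldin gene lay wholly higher (14.7% of all genes) and 2 wholly lower (11.8%).

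Of the phosducin-like and thioredoxin-like co-factors, 0 of 3 had a positive change in reads (Pdcl3 at -0.39, Txndc9 at -0.24), and their tail changes were 0.11 and -0.09. The tubulin folding cofactors, which complete tubulin dimers after release from CCT, had 1 of 4 positive in reads. Estimates were -0.86 for Tbcc and 1.54 for Tbcd, with 4 to 36 reads per library behind Tbcd. Only Tbca (-0.18) and Tbcb (0.14) could be tested for tails.

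Among the substrates, 11 of 13 tested had a positive tail change, with a median of 0.15. Ppp2r2a, a regulatory subunit of protein phosphatase PP2A, had tails of 109.0, 101.4, 122.8 and 189.8 nt on 20 to 43 reads (log2 change 0.54; limma adjusted p = 0.9998). Tubb5, a beta tubulin, had 0.18. In reads, 12 of 18 substrates had a positive change with a median of 0.22. In tails 4 substrates lay wholly higher in KO (14.7% of all genes) and 1 wholly lower (11.8%). In reads 6 lay wholly higher (20% of all genes) and 3 wholly lower (20.5%). No test was made of these counts. Actg1, cytoplasmic gamma actin, had 996, 1128, 1886 and 2039 RPM, a log2 change of 0.88 (limma voom adjusted p = 0.133) without overlap. Actb had 149, 420, 325 and 490 RPM, a change of 0.67 (limma voom adjusted p = 0.542) with overlap. Actin and tubulin genes have close copies, and how the authors assigned reads among them is not given in the sources used here.

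The mitochondrial chaperonin, a separate ring of Hspd1 with its lid Hspe1, was set beside CCT. Tail changes were -0.01 and 0.05. Hspd1 had 358, 1034, 828 and 1026 RPM, where WT 1 was low as it was for 7 CCT subunits, and Hspe1 had a log2 change of -0.06 in reads.

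By likeness of tail profile, the 3 genes nearest to the median over the CCT subunits in the 4 libraries were Tmem147, Rae1 and Mrps24. Their root mean square differences on the log2 scale were 0.03, 0.03 and 0.04. Tmem147 had tails of 94.6, 92.4, 98.0 and 97.6 nt. The subunits themselves lay 0.08 (Cct7) to 0.17 (Cct5) from that median. Likeness over 4 libraries describes these values only.

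As checks of the libraries, Mov10 had 26 and 14 reads in WT and 0 and 1 in KO. All 8 stem cell markers were detected, with a summed level of 9123 to 10082 RPM in WT and 6405 to 7781 in KO. Of 8 fibroblast feeder markers 6 were at 0 in all libraries. Their sums of 147 to 260 RPM were nearly all Fn1 (247, 142, 231 and 247 RPM). Among 8 germ layer markers 5 were at 0, with sums of 0 to 4.28. The stem cell marker sum differed with genotype, and its part in the CCT values was not tested.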

How the data were processed

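Per the labels' protocols, poly(A) RNA was selected from total RNA on oligo(dT) beads and sequenced as direct RNA; minimap2 2.20 is named in the submitters' processing notes. The basecaller, build, annotation, tail estimator and read filters are not given in the sources used here. Per the file headers, the deposited values are tail lengths in nt per read, with a transcript, symbol, library and the authors' classes; this unit is neither a count nor normalized. Reads with a tail of 0 were left out (3 of 1903922).

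Libraries were the replicates. Tail length was tested with limma 3.58.1 in R 4.3.3 on log2 median tail (a minimum of 20 reads in every library; trend on log2 mean reads). Tail SEs came from a spread shared over genes at like read number, and a gene's own spread had no weight in them. Cct3 and Cct6a had SEs of 0.132 and 0.134, with SDs in WT of 0.07 and 10.03 nt. Reads were counted here from the table and tested with limma voom (0.5 added, median-of-ratios scaling, mean of at least 10 reads). P-values were adjusted by Benjamini-Hochberg over all genes. Both fits were tested on simulated data. Named partners were the genes of each list with the smallest p. Replicates differed by more than sampling noise (chi-square per degree of freedom 5.37 over 4145 genes in WT and 2.16 over 5392 genes in KO). These gene sets are larger than the 1935 genes tested for tails. Intervals of medians are order-statistic intervals at 95%. Promoters came from RefSeq. The members and lists were chosen with earlier results of these data known. Tables and intervals were made with scipy 1.17.1 and pandas 2.3.3 in Python 3.11.15.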

Additional observations from a re-analysis of the deposited data

How the results depend on the processing

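No subunit passed the adjusted threshold for tails under any alternative run, and for reads only Cct2 did, without WT 2. With the mean of log2 tail length the change of Cct7 was -0.0093 in place of 0.07, and the mean over subunits and libraries was 90.7 nt in place of 95.1; the cause was not tested. Over all genes the tail calls were 0, and 1 with the minimum lowered to 10 reads. The read calls were 0, and 7 with scaling by total reads, 1 with upper quartile scaling, 96 with no filter and 66 with the replicate block; the cause was not tested. The replicate numbers share only a number (same-number correlation 0.01 for tails and 0.02 for reads), and the block left 0 subunits called.

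Leaving out 1 library at a time gave, for tails, 0 to 0 subunits called, a median change of 0.0279 to 0.0941, 0 to 2 genes called, Cct2 from 0.02 to 0.21, Cct4 from 0.0095 to 0.09, Cct5 from 0.08 to 0.19, Cct6a from -0.226 to 0.0092, Cct8 from -0.0306 to 0.0947, and a mean level of 93.3 to 96.3 nt. For reads it gave 0 to 1 subunits called, a median of -0.15 to 0.32, 0 to 451 genes called, Tcp1 from -0.103 to 0.0943, Cct2 from 0.40 to 0.73, Cct3 from 0.06 to 0.45, Cct4 from -0.41 to -0.13, Cct5 from -0.0655 to 0.218, Cct6a from -0.21 to 0.73, Cct7 from -0.20 to 0.20 and Cct8 from -0.21 to 0.42. A group left with 1 library is assumed to vary like the other. The depth of 96 to 594 reads per gene and library limits single medians.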
